A study of Homo sapiens with 15 samples.

Results

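HEPH, DOCK8, ZNF22, CNTN3 and TUSC1 are 5 genes of the 60675 in the expected count table that divided KDAC4 H976Y cells from every other library. They were selected on their counts in that comparison: HEPH and DOCK8 were read almost only in the 4 KDAC4 H976Y libraries, and ZNF22, CNTN3 and TUSC1 had 0 counts in those 4 libraries and counts in the 10 others. That contrast chose the genes, so its values are given as a description and carry no test. The libraries come from HT1080, an established human fibrosarcoma line, and hold ribosomal RNA-depleted total RNA. Endogenous KDAC4, the product of HDAC4, carried H976Y in 4 untreated samples. The other groups were wild-type cells kept for 2 days in 1 µM TMP195, a class IIa deacetylase inhibitor (3 samples), cells with H709A in KDAC7, the product of HDAC7 (4 samples, no treatment), and cells with H803A in KDAC4 (4 samples, no treatment). H709A and H803A are taken as the inactive forms of the series' title, and H976Y as the enhanced form. Nothing in the labels tells whether replicates were separate cultures, or whether a mutant group is 1 clone, so the p-values cover the spread between these libraries alone. Untreated wild-type cells were not analysed here, so none of the groups gives a baseline level of these genes.

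Class IIa lysine deacetylases, the family of both mutated enzymes, carry corepressor complexes to genes bound by transcription factors such as MEF2. The chosen genes belong to unrelated pathways. HEPH encodes hephaestin, a membrane-bound multicopper ferroxidase related to ceruloplasmin, which oxidises ferrous iron as it leaves intestinal cells through ferroportin. DOCK8 encodes a guanine nucleotide exchange factor for CDC42 that is used mainly by lymphocytes, and its loss causes a combined immunodeficiency. ZNF22 encodes a C2H2 zinc finger protein. CNTN3 encodes a contactin, an immunoglobulin-superfamily adhesion molecule held to the membrane by a lipid anchor and known mostly from neurons, where its family binds receptors such as the phosphatase PTPRG. TUSC1, tumor suppressor candidate 1, is an intronless gene at 9p21, a region often lost in tumours.

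The genes lie on 4 chromosomes. In GENCODE v29 (GRCh38), HEPH (ENSG00000089472) spans chrX:66162549-66268867 on the plus strand and DOCK8 (ENSG00000107099) spans chr9:214854-465259 on the plus strand. ZNF22 (ENSG00000165512) spans chr10:45000475-45005326 on the plus strand, CNTN3 (ENSG00000113805) spans chr3:74262568-74521140 on the minus strand, and TUSC1 (ENSG00000198680) spans chr9:25676389-25678440 on the minus strand. DOCK8 and TUSC1 share chromosome 9, DOCK8 near the end of its short arm. The starts of 4 of the genes are printed here as RefSeq windows of GRCh38.p14, running from 250 bases before the most upstream start to 50 bases after it, so that the genes read in KDAC4 H976Y cells and those not read there can be set side by side. Capitals mark CpG dinucleotides. The windows are chrX:66162421-66162720 on the plus strand for HEPH, chr9:214615-214914 on the plus strand for DOCK8, chr10:45000673-45000972 on the plus strand for ZNF22 and chr9:25678395-25678694 on the minus strand for TUSC1.
HEPH: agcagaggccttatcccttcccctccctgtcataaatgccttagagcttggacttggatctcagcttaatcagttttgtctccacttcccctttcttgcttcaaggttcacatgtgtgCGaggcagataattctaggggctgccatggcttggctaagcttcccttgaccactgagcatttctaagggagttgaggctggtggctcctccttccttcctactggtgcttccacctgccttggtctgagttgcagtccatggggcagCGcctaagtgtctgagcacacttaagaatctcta
DOCK8: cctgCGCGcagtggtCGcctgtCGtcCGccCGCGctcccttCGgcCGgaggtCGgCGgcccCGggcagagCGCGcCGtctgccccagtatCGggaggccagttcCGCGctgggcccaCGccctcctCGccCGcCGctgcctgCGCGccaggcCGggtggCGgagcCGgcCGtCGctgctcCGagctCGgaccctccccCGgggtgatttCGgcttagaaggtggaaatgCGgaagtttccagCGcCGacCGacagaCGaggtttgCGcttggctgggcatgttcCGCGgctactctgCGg
ZNF22: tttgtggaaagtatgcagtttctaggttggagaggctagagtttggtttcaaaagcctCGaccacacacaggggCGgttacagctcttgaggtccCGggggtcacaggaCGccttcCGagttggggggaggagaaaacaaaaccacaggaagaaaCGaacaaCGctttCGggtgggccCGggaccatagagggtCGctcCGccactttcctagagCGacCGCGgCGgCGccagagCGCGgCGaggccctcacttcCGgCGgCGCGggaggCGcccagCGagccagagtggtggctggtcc
TUSC1: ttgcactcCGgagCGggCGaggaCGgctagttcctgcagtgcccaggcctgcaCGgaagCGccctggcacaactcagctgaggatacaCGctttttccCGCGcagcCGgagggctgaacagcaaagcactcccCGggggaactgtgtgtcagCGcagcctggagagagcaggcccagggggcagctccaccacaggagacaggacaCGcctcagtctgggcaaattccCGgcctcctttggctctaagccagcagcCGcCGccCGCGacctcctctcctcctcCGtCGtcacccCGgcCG

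In CpG content the HEPH window stood below the median of all windows, and the others stood above it. The HEPH window held 2 CpG dinucleotides at 51.3% G or C, and 11.0% of the 35114 windows in the RefSeq table held fewer. The DOCK8 window, the other gene read almost only in KDAC4 H976Y cells, held 42 at 73.3% G or C, more than 94.2% of windows. The windows of the silent genes held 25 for ZNF22, 22 for TUSC1 and 43 for CNTN3, against a median of 14 over all windows. In the same order, 68.0%, 62.3% and 95.0% of windows held fewer. The CNTN3 window (chr3:74614610-74614909, minus strand) lies upstream of the GENCODE v29 span and is not printed. Neither the MEF2-type motif (CTA, any 4 bases, TAG) nor the TATA box TATAAA was found in any of the 5 windows on either strand, while 2.73% and 11.5% of all windows held them. The first reads the same on both strands, a TATAAA can lie within it, and these counts are descriptions of the letters only.

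Before the values, 3 features of the libraries bear on them. The deposited column of KDAC4 H803A replicate 4 held gene lengths rather than counts: 7383 of 7628 genes with a single annotated transcript over 1 kb, or 96.8%, stood at 1 fixed difference from that transcript's length, against at most 0.236% in any other column. It was left out, which leaves 14 libraries with 6151417 to 11343873 counts in KDAC4 H976Y cells, 12791994 to 14699009 in TMP195-treated cells, 9982033 to 24297525 in KDAC7 H709A cells and 8909859 to 15640844 in KDAC4 H803A cells. The KDAC4 H976Y libraries also stood apart in RNA make-up, with 16.1% to 31.5% of counts in mitochondrial ribosomal RNA against at most 0.345% elsewhere. Small nucleolar RNA held 0.742% to 0.937% of their counts, against at most 0.140% elsewhere. Mitochondrial messenger RNA went the other way, at 0.676% to 1.41% against 2.38% to 14.7% elsewhere. Effects of the variant cannot be told apart from those of this difference in any contrast of KDAC4 H976Y with other groups. How the difference arose was not tested. KDAC7 H709A replicate 4 and KDAC4 H803A replicate 1 differed less than any other pair of libraries, with a chi-square per gene of 2.14, where 1 is sampling noise. Pairs within a group ranged from 2.76 to 287, so these libraries, given different labels, were closer than replicates. Likewise, KDAC7 H709A replicate 1 stood nearer to KDAC4 H803A replicates 3 and 2 (33.1 and 52.7) than to its own group (155 to 287), so these 2 mutant groups are not cleanly divided by label. Values of the 5 genes that moved without KDAC7 H709A replicate 4 or KDAC4 H803A replicate 1 by enough to change a reading are also given without them. Levels are counts per 1000000 (CPM) of the library size scaled by trimmed mean of M values (TMM), and 1 CPM equals 4.86 to 23.9 counts in these libraries.

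HEPH had 86, 84, 77 and 36 counts in the KDAC4 H976Y libraries, against 1, 10 and 6 in the TMP195 libraries, 0, 1, 0 and 0 in the KDAC7 H709A libraries and 0 in each of the 3 KDAC4 H803A libraries. Scaled, these were 12.1, 8.93, 8.34 and 7.41 CPM in KDAC4 H976Y cells, 0.0635, 0.611 and 0.401 CPM in TMP195-treated cells, and at most 0.0868 CPM in the other mutant libraries. Every KDAC4 H976Y library lay above every other library, and the TMP195 libraries were the only other group with a count in each library. The mean was 9.20 ± 2.04 CPM in KDAC4 H976Y cells (SD, n = 4), 0.358 ± 0.276 CPM in TMP195-treated cells (SD, n = 3) and 0.0217 ± 0.0434 CPM in KDAC7 H709A cells (SD, n = 4). Per kilobase of the longest transcript, HEPH stood at 1.53 CPM in KDAC4 H976Y cells. By pooled counts, HEPH was 25.6-fold higher in KDAC4 H976Y cells than in TMP195-treated cells (95% interval 15.7 to 44.6), 571-fold higher than in KDAC7 H709A cells (102 to 22623, from 1 count) and at least 109-fold higher than in KDAC4 H803A cells, whose 0 counts were set to a floor of 3 counts over the group. These exact intervals and floors cover counting error only. In bulk RNA, more cells expressing a gene and more RNA per cell cannot be told apart.

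DOCK8 gave the same division. It had 50, 77, 85 and 27 counts in the KDAC4 H976Y libraries, against 2, 0 and 1 in the TMP195 libraries, 2, 0, 0 and 0 in the KDAC7 H709A libraries and 0 in each KDAC4 H803A library. The KDAC4 H976Y levels were 7.04, 8.19, 9.20 and 5.56 CPM, and no other library exceeded 0.193 CPM. The mean of 7.50 ± 1.56 CPM in KDAC4 H976Y cells (SD, n = 4) came to 0.808 CPM per kilobase of the longest transcript. DOCK8 was 123-fold higher in KDAC4 H976Y cells than in TMP195-treated cells (95% interval 41.4 to 599, from 3 counts), 241-fold higher than in KDAC7 H709A cells (66.0 to 2002, from 2 counts) and at least 91.7-fold higher than in KDAC4 H803A cells. Unlike HEPH, DOCK8 was read in 2 of 3 TMP195 libraries at no more than 2 counts each.

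ZNF22 had 0 counts in each of the 4 KDAC4 H976Y libraries. It had 177.58, 142.26 and 152 counts in the TMP195 libraries, 151.94, 121.81, 210 and 1107.33 in the KDAC7 H709A libraries, and 655.22, 97 and 84 in the KDAC4 H803A libraries. Values that are not whole came from reads shared among genes by the authors' count estimation. In CPM these were 11.3, 8.67 and 10.2 with TMP195, 14.7, 10.6, 13.1 and 46.4 with KDAC7 H709A, and 41.5, 9.40 and 9.21 with KDAC4 H803A. The level therefore fell into 3 steps: 0 in KDAC4 H976Y cells, 8.67 to 14.7 CPM in 8 libraries, and 41.5 and 46.4 CPM in KDAC4 H803A replicate 1 and KDAC7 H709A replicate 4, the pair of libraries that differed least. The 0 counts over the KDAC4 H976Y group allow up to 0.0980 CPM, so ZNF22 was at least 102-fold lower there than with TMP195, at least 263-fold lower than with KDAC7 H709A and at least 242-fold lower than with KDAC4 H803A. Without that pair of libraries the bounds were 130-fold against KDAC7 H709A and 95.0-fold against KDAC4 H803A.

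CNTN3 also had 0 counts in each KDAC4 H976Y library. It had 81, 62 and 76 counts in the TMP195 libraries, 139, 159, 297 and 380 in the KDAC7 H709A libraries, and 271, 64 and 87 in the KDAC4 H803A libraries. The levels were 5.14, 3.79 and 5.08 CPM with TMP195, 13.4, 13.8, 18.6 and 15.9 CPM with KDAC7 H709A, and 17.2, 6.20 and 9.54 CPM with KDAC4 H803A. The TMP195 libraries lay below every mutant library that had counts. CNTN3 was at least 47.4-fold lower in KDAC4 H976Y cells than in TMP195-treated cells, at least 161-fold lower than in KDAC7 H709A cells and at least 122-fold lower than in KDAC4 H803A cells (79.2-fold without KDAC4 H803A replicate 1).

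TUSC1 was the most even of the silent genes where it was read. After 0 counts in all 4 KDAC4 H976Y libraries, it had 99, 128 and 101 counts in the TMP195 libraries, 113, 70, 82 and 114 in the KDAC7 H709A libraries, and 74, 109 and 78 in the KDAC4 H803A libraries. The levels ran from 4.69 to 10.9 CPM over these 10 libraries, with the group ranges overlapping. The means were 6.95 ± 0.784 CPM with TMP195 (SD, n = 3), 6.72 ± 2.84 CPM with KDAC7 H709A (SD, n = 4) and 7.93 ± 2.99 CPM with KDAC4 H803A (SD, n = 3). TUSC1 was at least 71.1-fold lower in KDAC4 H976Y cells than with TMP195, at least 62.6-fold lower than with KDAC7 H709A and at least 75.6-fold lower than with KDAC4 H803A. Per kilobase of transcript its level in the 10 libraries, 3.49 CPM, lay below that of ZNF22 (6.86 CPM) and above that of CNTN3 (2.20 CPM).

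**Figure D1:**
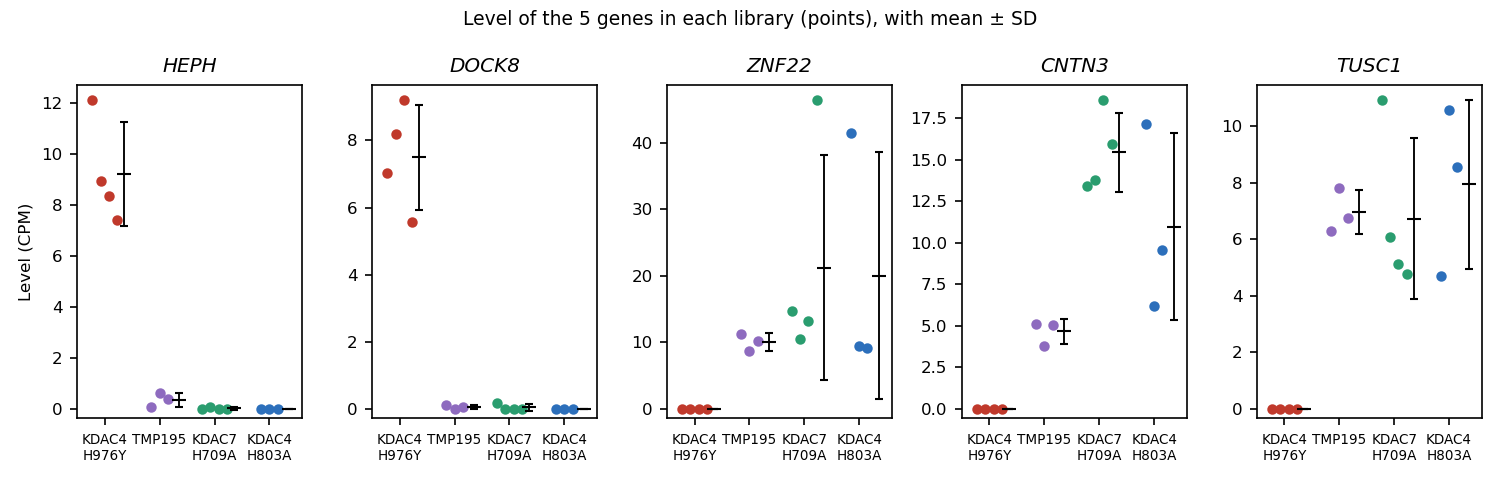
Level in CPM (linear axis) of the 5 genes in each of 14 libraries, grouped as KDAC4 H976Y, TMP195-treated wild type, KDAC7 H709A and KDAC4 H803A; points are libraries, bars are mean ± SD. HEPH and DOCK8 reach 12.1 and 9.20 CPM in KDAC4 H976Y libraries, where the other 3 genes are at 0, and ZNF22 reaches 41.5 and 46.4 CPM in 1 KDAC4 H803A and 1 KDAC7 H709A library.

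All 5 genes passed the filter on low counts, HEPH and DOCK8 only through the KDAC4 H976Y libraries. The rule had fixed HEPH and DOCK8 as low in the other groups, so they were not tested there. For ZNF22, CNTN3 and TUSC1 it asked only for counts in those groups, and differences between the groups could be tested. By edgeR's quasi-likelihood test with Benjamini-Hochberg adjustment over 17780 genes and a threshold of 0.05, TMP195-treated cells differed from KDAC7 H709A cells in 1119 genes (6.29%), 353 higher (1.99%) and 766 lower (4.31%). TMP195-treated cells differed from KDAC4 H803A cells in 949 genes (5.34%), 277 higher (1.56%) and 672 lower (3.78%). KDAC7 H709A and KDAC4 H803A cells differed in 0 genes (0%), with 1118 at an unadjusted p under 0.05 and 79 called by DESeq2. Without KDAC4 H803A replicate 1 these counts were 2708, 2695 and 4788. The contrasts share libraries and are not independent of each other.

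CNTN3 was lower in TMP195-treated cells. Its level averaged 4.67 ± 0.767 CPM with TMP195 and 15.4 ± 2.38 CPM with KDAC7 H709A (SD, n = 3 and 4), a log2 fold change of -1.72 ± 0.36 (SE) with an edgeR adjusted p of 0.0189, and the groups did not overlap. Leaving out any of the 3 TMP195 libraries ended that call, with adjusted p of 0.0811 to 0.113 (6.18e-05 to 0.113 over 20 alternatives), while the log2 fold change stayed between -1.81 and -1.60. Without KDAC7 H709A replicate 4 and KDAC4 H803A replicate 1 it was -1.71, with an adjusted p of 0.00668. Against KDAC4 H803A cells at 11.0 ± 5.62 CPM (SD, n = 3), the log2 fold change of TMP195-treated cells was -1.23 ± 0.37 and did not pass (edgeR adjusted p = 0.09), though it did with DESeq2 (adjusted p = 0.0143) and without KDAC4 H803A replicate 2 (adjusted p = 0.0405; 0.0143 to 0.307 over 20 alternatives). It was -0.74 without KDAC4 H803A replicate 1 (adjusted p = 0.125) and -0.74 without both that library and KDAC7 H709A replicate 4 (adjusted p = 0.128). KDAC7 H709A cells were not called against KDAC4 H803A cells (log2 fold change 0.49 ± 0.34, edgeR adjusted p = 0.634), but were without KDAC4 H803A replicate 1 (adjusted p = 0.0388; up to 1 over 20 alternatives). Without both libraries that difference was 0.97, with an adjusted p of 0.0723.

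Outside KDAC4 H976Y cells, HEPH had 17 counts in the 3 TMP195 libraries, 10 of them in replicate 2, against 1 in the 4 KDAC7 H709A libraries and 0 in the 3 KDAC4 H803A libraries. DOCK8 had 3 counts in the TMP195 group, against 2 in the KDAC7 H709A group and 0 in the KDAC4 H803A group. These low counts are a description and carry no test.

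ZNF22 and TUSC1 were not called in any of the 3 contrasts. For ZNF22, TMP195-treated cells stood at a log2 fold change of -1.08 ± 0.65 from KDAC7 H709A cells (edgeR adjusted p = 0.359) and -1.0 ± 0.68 from KDAC4 H803A cells (adjusted p = 0.489). The difference from KDAC7 H709A cells was -0.35 without KDAC7 H709A replicate 4, and that from KDAC4 H803A cells turned to 0.12 without KDAC4 H803A replicate 1. For TUSC1 the estimates lay between -0.24 and 0.05, with SE of 0.38 to 0.41 and adjusted p of 0.754 to 0.948.

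KDAC4 H976Y cells differed from the mean of the other 3 groups in 4012 of 17780 genes (22.6%), with 2091 higher (11.8%) and 1921 lower (10.8%). Gaps that no library crosses were counted apart, by a measure unlike these calls. A library at 0 was set to 1 count. Of the 17780 genes, 12 had their lowest KDAC4 H976Y library at least 10-fold above the highest other library. Another 19 had their highest KDAC4 H976Y library at least 10-fold below the lowest other library. This count was made after the values were seen. HEPH, DOCK8, ZNF22, CNTN3 and TUSC1 were chosen for such differences, so their places by size of gap are descriptions only. By size of the gap, DOCK8 was number 3 of the 12 at 28.8-fold and HEPH number 10 at 12.1-fold. The 2 genes with larger gaps than DOCK8 were MTRNR2L1, a nuclear gene with a near copy of the mitochondrial ribosomal RNA sequence, and MT-RNR2 itself. Their values cannot be told apart from that RNA. The mitochondrial ribosomal RNA gene MT-RNR1 at number 8 and the small nucleolar RNA gene SNORD3A at number 9 also stood above HEPH. Both belong to the RNA classes that set the KDAC4 H976Y libraries apart in make-up. ZNF22 was number 3 of the 19 at 42.1-fold, TUSC1 number 7 at 22.8-fold and CNTN3 number 11 at 18.4-fold. GALNT13 at 9.98-fold lay just outside the 12, and MGMT at 10.5-fold just inside the 19.

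The same count for other groups was unequal. KDAC7 H709A and KDAC4 H803A each had 0 genes set apart from the rest by 10-fold, and TMP195 had 2 higher and 96 lower. Each of these mutant groups holds a library of the pair that differed least, which all but fixed its 0 in advance. Their 0 therefore cannot be read against the counts of the other groups. Of 17780 tested genes, 99 had 0 counts in all 4 KDAC4 H976Y libraries. Of these, 14 had at least 10 counts in each of the 10 other libraries. ZNF22, CNTN3 and TUSC1 were among the 14, having been chosen for that pattern. The 19 genes with a 10-fold gap below the other libraries included 4 on chromosome 10 (21.1%, against 3.85% of tested genes), ZNF22 itself among them. They also included 3 on chromosome 13 (15.8%, against 1.86%), which holds none of the 5 genes. Shares were not computed for every chromosome. MIR3648-1, MIR3648-2 and CYP4F29P, also among the 19, lie on chromosome 21. MIR3648-1 and MIR3648-2 had the same lowest and highest counts outside KDAC4 H976Y cells (73 and 2821). On chromosome 9, which holds DOCK8 and TUSC1, the median log2 fold change of all 726 tested genes was -0.39, against -0.05 over all tested genes.

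**Figure D2:**
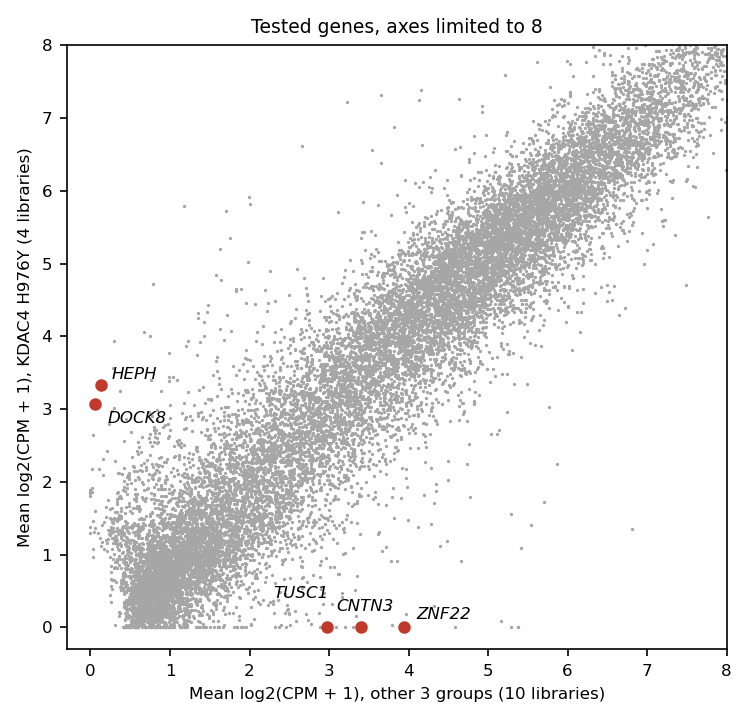
Mean log2(CPM + 1) of each tested gene in the 4 KDAC4 H976Y libraries (vertical) against the mean in the 10 other libraries (horizontal), each axis shown up to 8. The 5 genes (red) lie along the edges of the cloud: HEPH and DOCK8 near 0 on the horizontal axis, and ZNF22, CNTN3 and TUSC1 at 0 on the vertical axis.

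The tested protein-coding genes within 1 Mb of the 5 were not set apart in the same way. The protein-coding C9orf66, which overlaps DOCK8, was below the filter. It had 19 counts in the KDAC4 H976Y group, against 1 with TMP195 and 0 in each other mutant group. Position was not used to choose the genes, so their neighbours in the contrast of KDAC4 H976Y with the other groups could be read with the test. Within 1 Mb lay 27 protein-coding genes, of which 17 were tested; 0 were called higher and 4 lower (23.5%, against 22.6% of all tested genes), with a median log2 fold change of -0.38. Without KDAC4 H976Y replicate 1 or replicate 3 only 2 were called.

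Beside HEPH, the moesin gene MSN, which links actin to the membrane, stood at a log2 fold change of -0.38 ± 0.26 (edgeR adjusted p = 0.295). LAS1L, a ribosome maturation factor, was called lower at -0.50 ± 0.14 (adjusted p = 0.0249), a call that 7 of 20 alternatives ended. EDA2R stood at -0.03 and ZC3H12B at -0.23. HEPH had 0 of 4 tested neighbours called in its own direction, where 11.8% of all tested genes were called higher. So few genes cannot be told apart from that share.

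KANK1, a regulator of actin at adhesions, starts 5 kb past the end of DOCK8 and was called lower, at 29.7 ± 1.32 CPM in KDAC4 H976Y cells (SD, n = 4) against 37.6 ± 1.24 CPM with TMP195, 59.4 ± 6.16 CPM with KDAC7 H709A and 44.7 ± 4.26 CPM with KDAC4 H803A, a log2 fold change of -0.64 ± 0.12 (edgeR adjusted p = 0.00225). FOXD4, a forkhead transcription factor gene on the other side of DOCK8, was called lower at -2.42 ± 0.64 (adjusted p = 0.0171), on 10 counts in the KDAC4 H976Y group, and 3 of 20 alternatives ended the call. CBWD1 at -0.25 and WASH1 at -0.44 were not called. WASH1, FOXD4 and CBWD1 have near-identical copies in the genome, so their counts are uncertain. DOCK8 was read at 5.56 CPM or more in each KDAC4 H976Y library, and 0 of its 4 tested neighbours were called higher. Over all tested genes 11.8% were called higher, and on chromosome 9 28 of 726, so this 0 is no departure from the background.

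ZNF22 had 8 tested neighbours, with a median log2 fold change of 0.05. RASSF4, a Ras-association protein gene that ends 4.6 kb before ZNF22, was not called, with 17.7 ± 1.84 CPM in KDAC4 H976Y cells (SD, n = 4), 12.6 ± 1.37 CPM with TMP195, 15.7 ± 7.44 CPM with KDAC7 H709A and 16.6 ± 1.75 CPM with KDAC4 H803A (log2 fold change 0.25 ± 0.23, edgeR adjusted p = 0.448). C10orf10, also called DEPP1 and known as a FOXO target, was called lower at -1.70 ± 0.28 (adjusted p = 0.00113). On the far side, MARCHF8 stood at 0.05, ZFAND4 at -0.41, FAM21C at 0.05, AGAP4 at -1.06, TIMM23 at 0.66 and NCOA4 at 0.42, and none was called. All 8 had counts in KDAC4 H976Y cells, the fewest being 35 over the group for C10orf10.

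CNTN3 had 1 tested protein-coding neighbour within 1 Mb, the ubiquitin ligase gene PDZRN3, at -0.45 ± 0.41 (edgeR adjusted p = 0.437), and TUSC1 had 0. Within 3 Mb, 3 of 10 tested genes around CNTN3 were called, all higher: the glycosyltransferase gene GXYLT2 at 1.32 ± 0.24 (adjusted p = 0.00188), PPP4R2 and SHQ1. Around TUSC1, 0 of 7 tested genes within 3 Mb were called, with CAAP1 at 0.05, PLAA at -0.18 and IFT74 at 0.88 (adjusted p = 0.0675). Within 3 Mb of ZNF22, the receptor tyrosine kinase gene RET was called higher, at 0.983 ± 0.388 CPM in KDAC4 H976Y cells (SD, n = 4) against at most 0.0407 CPM as a mean of any other group. Over all 5 genes, 15 of 62 tested genes within 3 Mb were called (24.2%), 6 higher and 9 lower.

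**Figure D3:**
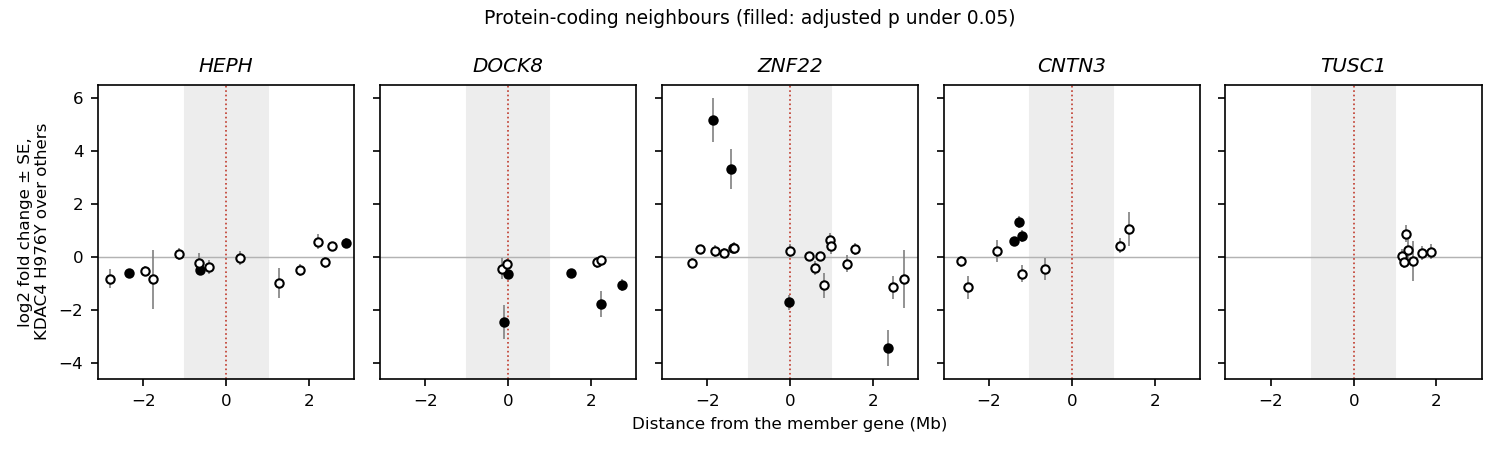
Fitted log2 fold change ± SE of tested protein-coding genes within 3 Mb of each of the 5 genes, KDAC4 H976Y over the mean of the other 3 groups, against distance from the gene in Mb (0 at the gene itself, 1 Mb shaded). Filled points have an adjusted p under 0.05; 0 of the 17 within 1 Mb are filled above the zero line and 4 below it.

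Genes that overlap DOCK8 and ZNF22 were read mostly in the same libraries as they were. The strand setting of the counting is not given in the sources used here, so reads of a gene and of a partner on the other strand cannot be told apart. C9orf66 runs opposite to DOCK8 over its start and covers the whole DOCK8 window printed above. It had 3, 3, 6 and 7 counts in the KDAC4 H976Y libraries, against 0, 0 and 1 in the TMP195 libraries and 0 in the 7 libraries of the other mutants. RP11-165F24.3, antisense to the far end of DOCK8, had 5 counts, all in KDAC4 H976Y libraries, and RP11-59O6.3, antisense within it, had 0 in every library.

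C10orf25 overlaps the start of ZNF22 on the opposite strand. It had 0, 2, 0 and 0 counts in the KDAC4 H976Y libraries, against 8.04, 6 and 16 in the TMP195 libraries, 14.21, 4, 3 and 104.21 in the KDAC7 H709A libraries, and 56, 2 and 3 in the KDAC4 H803A libraries. Its highest values fell in the same KDAC7 H709A replicate 4 and KDAC4 H803A replicate 1 as those of ZNF22. C10orf25 was not called in KDAC4 H976Y cells (edgeR adjusted p = 0.0517, and 0.0117 to 0.152 over 20 alternatives, of which 5 called it). The pseudogene CEP164P1, also opposite ZNF22, had 2 counts in the KDAC4 H976Y group and at most 36.46 in any other library.

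**Figure D4:**
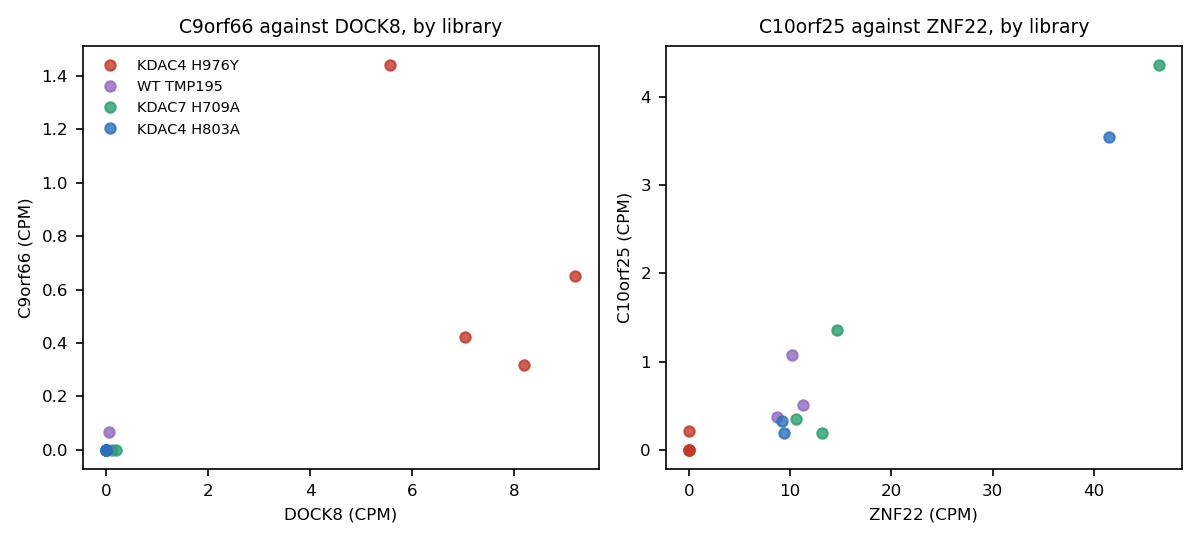
Level in CPM of C9orf66 against DOCK8 (left) and of C10orf25 against ZNF22 (right), a point per library. C9orf66 is above 0.3 CPM only in the 4 KDAC4 H976Y libraries, where DOCK8 is read, and C10orf25 is highest (3.55 and 4.36 CPM) in the 2 libraries where ZNF22 exceeds 41 CPM.

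The pathways of the 5 genes were read through lists of their relatives and partners, compared by edgeR in the contrast of KDAC4 H976Y with the mean of the other groups. Around HEPH, 28 genes of iron and copper handling were listed and 23 tested; 7 were called higher and 3 lower, where 11.8% of all tested genes were higher and 10.8% lower. The median log2 fold change of the list was 0.23, against -0.05 over all tested genes. FTH1, the heavy chain of the iron store ferritin, reached 698 ± 117 CPM in KDAC4 H976Y cells (SD, n = 4), against 228 ± 38.9 CPM with TMP195, 270 ± 108 CPM with KDAC7 H709A and 199 ± 141 CPM with KDAC4 H803A, a log2 fold change of 1.60 ± 0.31 (adjusted p = 0.00302). TFRC, the transferrin receptor that brings iron into the cell, rose by a log2 fold change of 1.28 ± 0.31 (adjusted p = 0.0112), and 1 of 20 alternatives ended its call. Of the copper transporters, ATP7A rose by a log2 fold change of 1.44 ± 0.44 (adjusted p = 0.032, lost in 7 of 20 alternatives), whereas ATP7B, on chromosome 13, stood at -1.63 ± 0.26 (adjusted p = 0.000914). The exporter with which hephaestin works, ferroportin (SLC40A1), was below the filter, with means of 0.719 CPM in KDAC4 H976Y cells and 0.334 to 0.537 CPM elsewhere. Ceruloplasmin (CP) was not called, at 0.554 ± 0.262 CPM in KDAC4 H976Y cells (SD, n = 4) and 0.354 to 1.08 CPM as means elsewhere.

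Around DOCK8, 27 genes of the DOCK family and the CDC42 pathway were listed and 25 tested; 1 was called higher and 8 lower, against 11.8% higher and 10.8% lower of all tested genes, with a median log2 fold change of -0.28. DOCK9, another exchange factor for CDC42, had 77.2 ± 6.56 CPM in KDAC4 H976Y cells (SD, n = 4), against 215 ± 7.06 CPM with TMP195, 255 ± 32.6 CPM with KDAC7 H709A and 298 ± 39.2 CPM with KDAC4 H803A, a log2 fold change of -1.72 ± 0.14 (edgeR adjusted p = 6.97e-06). LRCH1, which binds DOCK8, stood at -1.35 ± 0.12 (adjusted p = 1.46e-05). DOCK9 and LRCH1 both lie on chromosome 13. DOCK3 (-1.03, a call that 12 of 20 alternatives ended) and CDC42EP4 (-0.78) were also lower, and DOCK10 was the gene called higher (0.53 ± 0.16, adjusted p = 0.0294). CDC42 itself was not called (0.40 ± 0.35, adjusted p = 0.41).

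Around CNTN3, 18 contactins, partners and L1 family genes were listed and 8 tested; 1 was called higher and 2 lower, against 22.6% called of all tested genes, with a median log2 fold change of 0.04. CNTN1, another contactin, took the opposite course to CNTN3, with 16.0 ± 3.61 CPM in KDAC4 H976Y cells (SD, n = 4), against 1.23 ± 0.0446 CPM with TMP195, 0.0590 ± 0.0818 CPM with KDAC7 H709A and 1.18 ± 0.975 CPM with KDAC4 H803A. Its log2 fold change was 5.18 ± 0.53 (edgeR adjusted p = 4.41e-05), called under all 20 alternatives. L1CAM, a related adhesion molecule, was called lower (adjusted p = 0.0497, lost in 12 of 20 alternatives) at 0.0352 ± 0.0704 CPM in KDAC4 H976Y cells, against means of 0.653 to 2.46 CPM elsewhere. CNTNAP1 was lower by a log2 fold change of -0.44 ± 0.13, and 8 of 20 alternatives ended that call. PTPRG, the phosphatase partner of CNTN3, was not called, with mean levels of 185 CPM in KDAC4 H976Y cells and 156 to 184 CPM elsewhere.

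**Figure D5:**
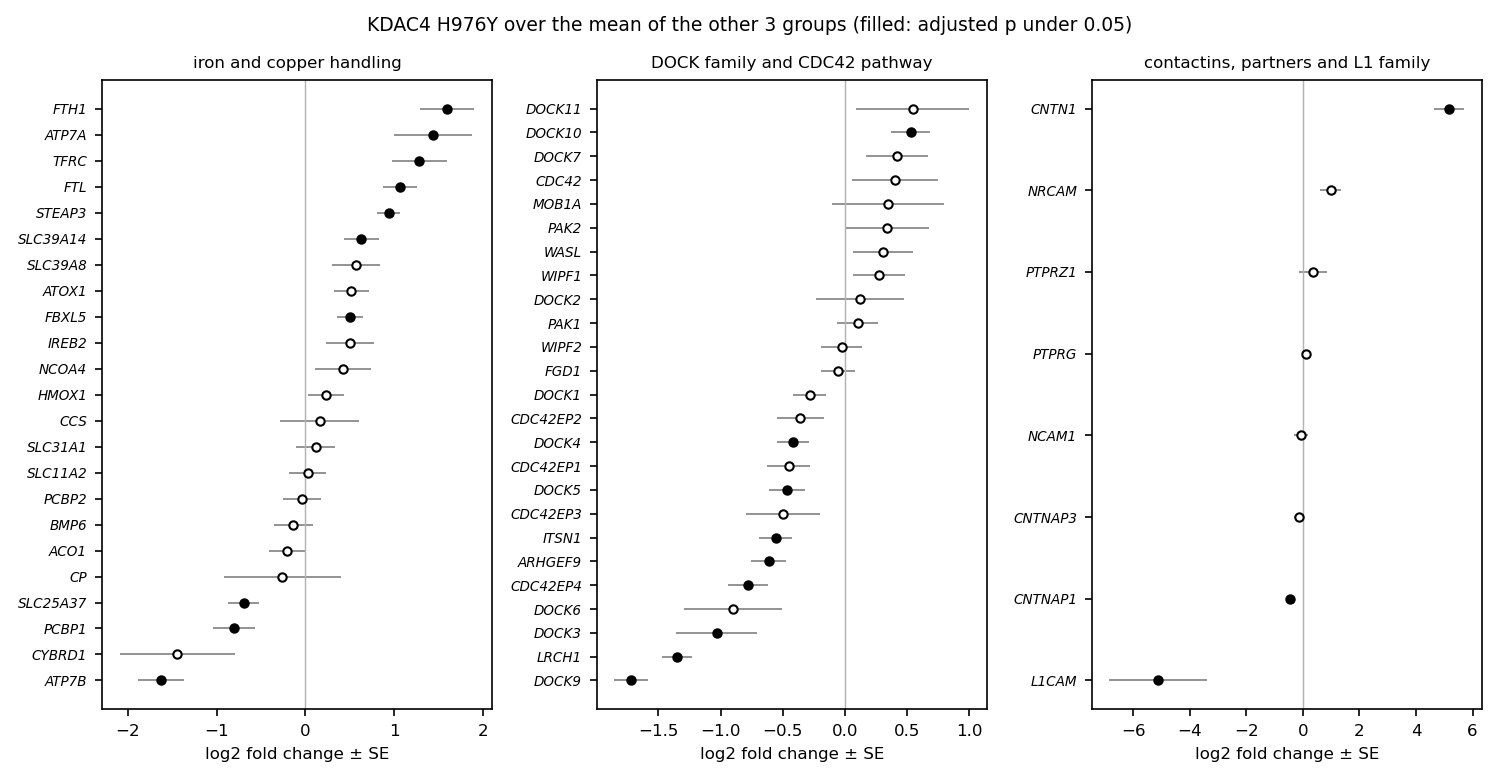
Fitted log2 fold change ± SE of the tested genes of 3 lists, KDAC4 H976Y over the mean of the other 3 groups; filled points have an adjusted p under 0.05 by edgeR. FTH1 tops the iron and copper list at 1.60, DOCK9 is lowest of the DOCK and CDC42 list at -1.72, and CNTN1 stands at 5.18 in the contactin list.

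Zinc finger genes around the chromosome 10 centromere and the genes of 9p21 gave the surroundings of ZNF22 and TUSC1 at a wider scale, again beside 22.6% called of all tested genes. Of 10 listed zinc finger genes 9 were tested, with a median log2 fold change of 0.24; ZNF239 was called higher (3.31 ± 0.75, edgeR adjusted p = 0.00738) and ZNF488 lower, at 0.0623 CPM in KDAC4 H976Y cells against means of 0.442 to 1.11 CPM elsewhere. The mean of ZNF239 was 5.57 CPM in KDAC4 H976Y cells, 4.23 CPM with KDAC4 H803A (SD 3.67) and 1.58 CPM with TMP195. It had 1 count over the KDAC7 H709A group, so its fold change depends on which groups are averaged. Of 19 listed 9p21 genes 12 were tested, with a median of 0.05; MLLT3, a chromatin reader gene, was called higher (0.65 ± 0.22, adjusted p = 0.0458), a call that 13 of 20 alternatives ended. CDKN2A, the cell cycle inhibitor gene of 9p21, had 0 counts in all 14 libraries, and CDKN2B had 1 count in all. TUSC1, also at 9p21, was read in all 10 libraries outside KDAC4 H976Y.

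Markers of cells known for DOCK8 (blood) and HEPH (intestine) were measured beside them. Of 8 blood markers only LYZ was tested, and it was called higher in KDAC4 H976Y cells, at 2.27 ± 1.14 CPM (SD, n = 4) against means of 0.0426 to 0.778 CPM elsewhere (log2 fold change 3.09 ± 0.65, edgeR adjusted p = 0.00488). The summed level of the 8 was 1.41 to 4.12 CPM in KDAC4 H976Y libraries, 0.0669 to 0.381 CPM with TMP195, 0.210 to 1.16 CPM with KDAC7 H709A and 0.0633 to 1.43 CPM with KDAC4 H803A. The leukocyte marker PTPRC and the erythroid marker HBB had 0 counts in every library, and IKZF1 had 2 counts, in KDAC7 H709A cells. CD79A had 6 counts and CD3E 1, all in KDAC4 H976Y libraries. CD14 and SPI1 were highest elsewhere. CD14 had a mean of 0.0515 CPM in KDAC4 H976Y cells and 0.187 CPM with TMP195. SPI1 had 0.0352 CPM in KDAC4 H976Y cells and 0.138 CPM with KDAC4 H803A. The part of blood cell RNA in the DOCK8 values was not tested further. The 5 intestinal markers summed to 0.213 to 1.44 CPM in KDAC4 H976Y libraries, 0.952 to 1.67 CPM with TMP195, 0.293 to 1.06 CPM with KDAC7 H709A and 0.329 to 0.581 CPM with KDAC4 H803A. The mesenchymal markers that fit HT1080 summed to 6270 to 9371 CPM in KDAC4 H976Y libraries and 4089 to 9295 CPM elsewhere. Of 9 tested, 3 were called higher and 2 lower, where 22.6% of all tested genes were called. FN1 (log2 fold change 1.68) and TIMP1 (0.75, lost in 4 of 20 alternatives) were higher. COL6A2 (-1.55) and COL6A1 (-0.92, lost in 11 of 20) were lower. For the epithelial markers, 0 of the 2 tested, of 7 listed, were called. Of 2 endothelial markers tested, KDR was called higher, at means of 1.68 CPM in KDAC4 H976Y cells, 0.296 CPM with TMP195, 1.72 CPM with KDAC7 H709A and 0.880 CPM with KDAC4 H803A, and 13 of 20 alternatives ended that call. The endothelial markers CDH5, VWF and CLDN5 had 0, 0.0867 and 0.187 CPM in KDAC4 H976Y cells, below the mean of every other group. PECAM1 had 0.563 CPM in KDAC4 H976Y cells, against 0.131 CPM with TMP195, 0.863 CPM with KDAC7 H709A and 0 CPM with KDAC4 H803A. Of 5 neural markers tested, TUBB3 was called higher.

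Across the 14 libraries, the genes most like each member were found by Pearson's r of log2(CPM + 1). The 14 points fall into 4 groups, and KDAC4 H976Y against the rest sets most of each r, so the values describe and test nothing. HEPH was most like GALNT13 (r = 0.990), RP11-624G17.3 (0.983) and GNG11 (0.975). DOCK8 was most like LIPG (0.991), TRBC1 (0.990), a T cell receptor constant gene at 2.83 CPM in KDAC4 H976Y cells and at most 0.0217 CPM as a mean elsewhere, and CCDC30 (0.980). ZNF22 was most like UBAP2 (0.983), CDH11 (0.981) and RBM26 (0.981), of which CDH11, a mesenchymal cadherin gene, had 2 counts in the KDAC4 H976Y group against 98 to 2567 per library elsewhere. CNTN3 was most like ZNF354C (0.987), DUSP5 (0.986) and PAN3 (0.974), and TUSC1 was most like PXN (0.992), RAPGEF1 (0.984) and MARCHF4 (0.982). Within the 10 other libraries, r was 0.64 between ZNF22 and CNTN3, -0.62 between ZNF22 and TUSC1, and -0.45 between CNTN3 and TUSC1 (n = 10). Without KDAC7 H709A replicate 4 and KDAC4 H803A replicate 1 these values were 0.67, -0.088 and -0.19 (n = 8), so the negative ones moved towards 0.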

How the data were processed

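Values are expected counts, unscaled, in a gene by sample table that the authors deposited. Per the submitters' processing notes, the tools were RSEM 1.3.3, Bowtie2 2.4.5, Trimmomatic 0.39 and DESeq2 1.38.2 and the build was GRCh38, without their roles. The annotation release is not given in the sources used here, nor is strandedness. RSEM shares reads among the transcripts they match, so counts of near-identical or overlapping genes are uncertain.

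Expected counts were rounded and fitted with edgeR 4.0.16 in R 4.3.3 (limma 3.58.1): filterByExpr (minimum count 10, minimum total 15), TMM scaling, glmQLFit and glmQLFTest over all 4 groups, with Benjamini-Hochberg adjustment over 17780 genes. This gave a common dispersion of 0.179 with 3.32 prior degrees of freedom. Gene positions came from GENCODE v29, matched by ID for 57055 of 60675 genes, and RefSeq windows were matched by symbol for all 5 genes. A group at 0 was set to 3 counts for fold bounds, and ratio intervals are exact conditional binomial at 95%.

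The genes, lists and tests were chosen with earlier results of these data known. Named genes are the 5 members, the 3 genes most like each, tested protein-coding neighbours within 1 Mb, and up to 4 called genes a list with the largest fold change; genes within 3 Mb, those overlapping a member, those in the ranking of gaps and uncalled genes of the lists were named after their values were seen. Alternatives were DESeq2 1.42.0, its size factors in edgeR, no filter, the replicate number as a block, removal of mitochondrial and small nucleolar RNA genes, and each replicate left out; leaving out KDAC4 H803A replicate 1 and KDAC7 H709A replicate 4 together was added after seeing the data.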

Additional observations from a re-analysis of the deposited data

Results flagged for a closer look

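ZNF22 in KDAC7 H709A replicate 4 stood at 46.4 CPM, against 10.6 to 14.7 CPM in the other 3 libraries of that group. Its gap to the nearest library was 0.886 of the group's range, above Dixon's 95% critical value for 4 samples. Of 9 groups of 4 examined, 1 was marked, and chance marks about 1 in 20. The same library was the closest of all to KDAC4 H803A replicate 1, where ZNF22 stood at 41.5 CPM. In both, C10orf25, which overlaps the start of ZNF22, was also at its highest, at 4.36 and 3.55 CPM. What sets these libraries together was not tested.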

How the results depend on the processing

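The count of genes called in KDAC4 H976Y cells, 4012, was 2459 with the replicate number as a block, 8176 without both KDAC4 H803A replicate 1 and KDAC7 H709A replicate 4, and 2132 to 7198 with 1 library left out (7198 without KDAC4 H803A replicate 1, and 2231, 2132 and 2170 without KDAC4 H976Y replicates 1, 2 and 3). KDAC7 H709A against KDAC4 H803A gave 0 calls, 79 with DESeq2, 14 with no filter, 2574 without both libraries and 0 to 4788 with 1 left out. TMP195 against KDAC4 H803A gave 949, then 1936 with DESeq2, 563 with the block, 3418 without both and 436 to 2695 with 1 left out. TMP195 against KDAC7 H709A gave 1119, then 2484, 453, 1992 and 422 to 2755 under those settings. The 4 called neighbours became 2 with the block, 15 within 3 Mb and 2 to 6 with 1 left out. The gap count of 12 higher and 19 lower genes at 10-fold was 28 and 32 at 5-fold and 4 and 10 at 20-fold, settings added after seeing the data. The cause was not tested.

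Directions of uncalled values turned. ZNF22, KDAC7 H709A against KDAC4 H803A, was 0.08, and -0.36 with the block and -0.66 to 1.22 with 1 library left out. ZNF22, TMP195 against KDAC4 H803A, was -1.0, and 0.12 without both libraries and -1.39 to 0.12 with 1 left out. TUSC1, TMP195 against KDAC7 H709A, was 0.05, and -0.083 with the block, -0.081 without both and -0.082 to 0.39 with 1 left out. With 1 left out, TUSC1 ranged -0.59 to 0.024 for KDAC7 H709A against KDAC4 H803A and -0.45 to 0.075 for TMP195 against KDAC4 H803A.

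Same-numbered replicates of different groups did not deviate together (correlations of -0.659 to 0.325), so the numbers do not pair samples. Under the replicate block, the CNTN3 call for TMP195 against KDAC7 H709A (adjusted p = 0.0709) was lost. With 4.86 to 23.9 counts to 1 CPM, counts under 10 a library limit what HEPH, DOCK8 and C9orf66 can show outside KDAC4 H976Y cells, and 3 or 4 libraries a group limit every test. The counts of HEPH, DOCK8, ZNF22, CNTN3 and TUSC1 in KDAC4 H976Y cells needed no setting here. Their CPM levels and folds rest on the TMM scaling, and the bounds also on the floor of 3 counts.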
